A study of Mus musculus with 16 samples.

Results

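The genes described here are the EGF receptor (ErbB) family and a set of its ligands: the receptors Egfr, Erbb2, Erbb3 and Erbb4, the neuregulins Nrg1, Nrg2 and Nrg3, and the EGF receptor ligands Hbegf and Tgfa. They were chosen by name, and all 9 were found among the 24056 gene labels used. RNA was sequenced from 4 adult mice at postnatal day 63, numbered 970, 971, 974 and 977. Every animal carried 1 copy of an Aldh1l1-creERT2 transgene and was heterozygous for Ribotag, an allele that puts a hemagglutinin (HA) tag on a ribosomal protein in cells where Cre has acted. The strain was FVB taken through 3 generations of crossing to C57/Bl6N, about 88% C57/Bl6N, with males and females among the 4 and the sex of each not in the labels. From the whole hippocampus and the whole striatum of each animal, RNA was taken from the cleared lysate (input) and from HA-precipitated ribosomes (IP), which gave 4 groups of 4 libraries. All groups carry both alleles, and no group without the tag or without Cre was analysed here. CreERT2 needs tamoxifen to act, and its dosing is not given in the sources used here. The IP represents cells in which the Aldh1l1 driver was active, plus whatever RNA the precipitation carried over from the lysate.

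ErbB receptors are tyrosine kinases that act as pairs. Egfr binds Tgfa, Hbegf and several other EGF-like peptides, Erbb3 and Erbb4 bind neuregulins, Erbb4 also binds Hbegf, Erbb2 binds no known ligand and serves as the favoured partner, and Erbb3 has little kinase activity of its own. In the brain, Erbb4 is known chiefly from inhibitory interneurons, Erbb3 from oligodendrocyte lineage cells, and Egfr from astrocytes and neural precursors. The ligands are made as membrane-bound precursors that proteases such as Adam17 cut loose.

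Sequences upstream of the start sites are shown for 4 members. Egfr and Erbb2 were higher in IP in both regions, and Erbb4 and Tgfa had lower means in IP. Each run is the 250 bases before the start site in RefSeq (GRCm38.p6), 5′ to 3′ on the gene's strand, with matches to the searched motifs in capitals. Egfr lies at chr11:16751953-16752202 on the plus strand, Erbb2 at chr11:98412234-98412483 on the plus strand, Erbb4 at chr1:69108060-69108309 on the minus strand and Tgfa at chr6:86194972-86195221 on the plus strand.
Egfr: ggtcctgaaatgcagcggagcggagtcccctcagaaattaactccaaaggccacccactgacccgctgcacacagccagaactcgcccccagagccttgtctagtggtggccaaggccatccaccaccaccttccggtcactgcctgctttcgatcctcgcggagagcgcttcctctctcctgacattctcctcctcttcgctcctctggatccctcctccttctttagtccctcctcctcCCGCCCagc
Erbb2: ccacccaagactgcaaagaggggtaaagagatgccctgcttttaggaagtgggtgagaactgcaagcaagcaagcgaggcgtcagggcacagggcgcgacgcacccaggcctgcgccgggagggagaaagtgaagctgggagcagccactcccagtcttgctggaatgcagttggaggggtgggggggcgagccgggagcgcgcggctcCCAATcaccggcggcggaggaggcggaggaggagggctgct
Erbb4: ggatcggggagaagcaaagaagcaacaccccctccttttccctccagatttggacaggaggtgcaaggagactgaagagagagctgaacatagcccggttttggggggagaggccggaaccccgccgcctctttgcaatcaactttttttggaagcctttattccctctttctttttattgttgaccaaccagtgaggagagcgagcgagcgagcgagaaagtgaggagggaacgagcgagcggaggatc
Tgfa: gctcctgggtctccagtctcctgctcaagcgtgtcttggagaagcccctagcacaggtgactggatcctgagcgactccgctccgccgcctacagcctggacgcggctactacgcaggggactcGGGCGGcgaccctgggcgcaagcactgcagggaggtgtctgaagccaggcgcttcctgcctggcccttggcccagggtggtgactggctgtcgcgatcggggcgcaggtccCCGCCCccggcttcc

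The motifs searched on both strands were the TATA box TATAAA, the CCAAT box (CCAAT) and the GC box, spelt GGGCGG, and their matches do not overlap in these 4 sequences. Counted back from the start site, Egfr held GGGCGG on the opposite strand from position -9. Erbb2 held CCAAT from position -41. Tgfa held GGGCGG from position -126 and, on the opposite strand, from position -15. Erbb4 held none of the 3 motifs. Among all 32851 promoter windows of the same length, 12.4% held the TATA box, 33.8% the CCAAT box and 32.7% the GC box, so each match is a common one. The GC content was 60.8% for Egfr, 66% for Erbb2, 54% for Erbb4 and 69.2% for Tgfa, against a median of 52.4% over all windows. The window of Nrg3 (72.4% GC) held none of the 3 motifs and is not printed, and promoters of Erbb3, Nrg1, Nrg2 and Hbegf are not shown here.

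In the annotation (GENCODE vM21, GRCm38/mm10) all 9 are protein-coding genes. Egfr lies on chromosome 11 from 16752203 to 16918158 (plus strand) and Erbb2 on the same chromosome from 98412470 to 98437716 (plus strand). Erbb3 lies on chromosome 10 from 128567523 to 128589652 (minus strand) and Erbb4 on chromosome 1 from 68032186 to 69108059 (minus strand). The neuregulin genes are on chromosome 8 for Nrg1 (31814551 to 32884029), 18 for Nrg2 (36017652 to 36197380) and 14 for Nrg3 (38368952 to 39473088), all on the minus strand. Hbegf lies on chromosome 18 from 36504927 to 36515805 (minus strand) and Tgfa on chromosome 6 from 86195223 to 86275719 (plus strand). Overlap with genes on the opposite strand was small: 4.66% of the exon bases of Nrg1, 1.82% of those of Tgfa and 0.173% of those of Erbb2. Whether the counting used strand is not given in the sources used here, so reads from those stretches cannot be assigned to 1 of the partners.

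Levels are given as scaled FPKM, that is fragments per kilobase of the authors' gene length and per library depth, divided by a library scaling factor. Differences are log2 fold changes ± SE of values with 1 FPKM added, a scale on which the change of a low gene comes out too small. A gene is called when the limma test, adjusted by the Benjamini-Hochberg method over the 13467 genes tested, gave an adjusted p under 0.05. Each p rests on 1 spread per gene, pooled over the 4 groups of 4 animals, and not on the spread of the compared groups alone. The 16 libraries entered the test as independent, though each animal gave 4. All 9 members passed the filter on low values. The filter used FPKM before scaling. Erbb2 passed it through its IP libraries alone, since no input library reached 1 FPKM, and Nrg2 passed it through striatal libraries alone. These 2 were tested only because those groups are the higher ones. Erbb3 reached 1 FPKM in 1 hippocampal input, 2 striatal inputs and 2 striatal IPs, and in no hippocampal IP, so its test too rests mostly on striatal libraries.

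Estimated depth in M fragments ran from 9.04 to 12.3 for hippocampal input and from 18.9 to 22.6 for its IP, and from 4.15 to 8.97 for striatal input and 13.97 to 21.8 for its IP. The striatal input of animal 974 was the shallowest library. The driver gene Aldh1l1 went from 4.53 ± 1.35 in input to 110 ± 11.3 scaled FPKM in IP in hippocampus and from 4.29 ± 1.06 to 105 ± 27.6 in striatum (mean ± SD, n = 4), and all 12 astrocyte markers were called higher in both regions. All 11 measured markers of striatal projection neurons were called higher in striatal than in hippocampal input. Input RNA was not fully removed: over 16 pan-neuronal markers, the median IP level was 6.35% to 11.97% of the same animal's input in hippocampus and 10.7% to 25.9% in striatum. By the summed level of these markers it was 5.81% to 8.24% and 8.39% to 12.3%. The pan-neuronal share below is the median unless the sum is named. In bulk RNA, fewer cells of a type and less RNA per cell cannot be told apart.

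The first comparison was IP against input, which asks which members were enriched on astrocyte ribosomes. Egfr, Erbb2 and Hbegf were higher in IP in both regions, by several fold in every animal. Nrg3 and Tgfa were lower in IP in both regions, Erbb3 and Erbb4 were called lower in hippocampus, and Nrg1 was called lower in striatum. Nrg2 did not pass the test in either region, though it did in striatum with no scaling. In hippocampus 3 members were called higher and 4 lower, against 30.1% and 35.5% of all genes tested (65.5% in either direction). In striatum 3 were called higher and 3 lower, against 33.5% and 31.4% of all genes tested (65% in either direction). With so many genes called, the number of members called is near the background, and the results lie in which members moved and how far. The input and IP libraries did not overlap for 7 members in hippocampus, against 69.8% of all genes tested, and for 6 in striatum, against 52.1%.

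**Figure D1:**
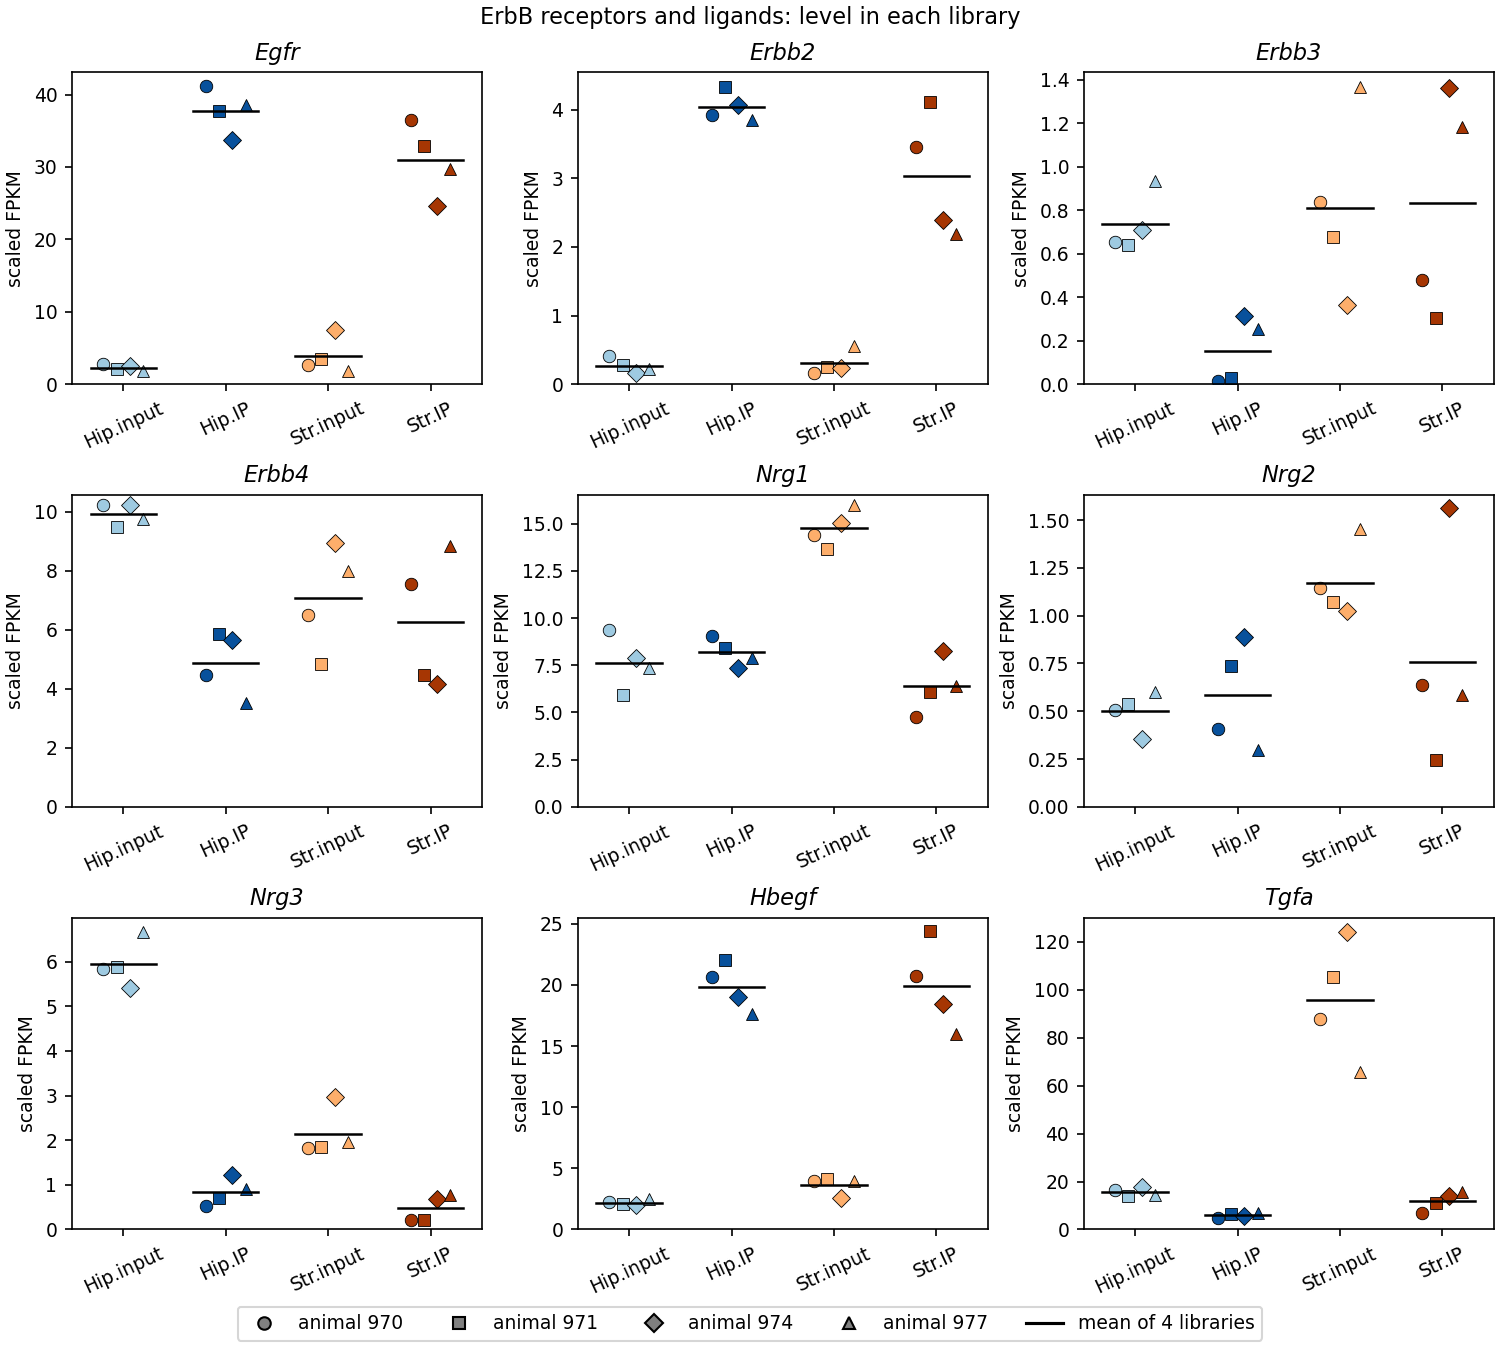
Scaled FPKM of each of the 9 genes (y axis, own linear scale from 0 in each panel) in the 4 groups (x axis), with 1 symbol per animal and a bar at the mean of 4 libraries. Egfr, Erbb2 and Hbegf stand high in both IP groups, Tgfa stands high in striatal input (65.8 to 124) and Nrg3 in hippocampal input (5.41 to 6.66).

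Among the receptors, Egfr had the highest level in IP. In animals 970, 971, 974 and 977 its scaled FPKM was 2.76, 2.03, 2.46 and 1.86 in hippocampal input and 41.1, 37.8, 33.7 and 38.5 in hippocampal IP. In striatum, the same animals gave 2.63, 3.50, 7.42 and 1.88 in input and 36.5, 33.0, 24.6 and 29.7 in IP. Every IP library lay far above every input library, and the striatal input of animal 974 was the highest of the 8 inputs. The log2 fold change was 3.57 ± 0.24 in hippocampus (adjusted p = 1.41e-09) and 2.83 ± 0.24 in striatum (adjusted p = 2.76e-08). Relative to the same animal's input, Egfr in IP was 13.7- to 20.7-fold higher in hippocampus and 3.32- to 15.8-fold higher in striatum, where 3.32 came from animal 974. The astrocyte driver Aldh1l1 itself was 19.2- to 28.8-fold higher in hippocampus and 16.1- to 38.8-fold higher in striatum.

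Erbb2, the receptor without a ligand, was low in input and rose in IP. Its scaled FPKM in hippocampus, in the order 970, 971, 974 and 977, was 0.41, 0.27, 0.17 and 0.22 in input and 3.93, 4.34, 4.06 and 3.85 in IP. In striatum it was 0.17, 0.26, 0.24 and 0.55 in input and 3.46, 4.12, 2.39 and 2.19 in IP. The groups did not overlap in either region, and the striatal IP libraries of animals 974 and 977 were the lowest of the 8 IPs. The log2 fold change was 1.996 ± 0.15 in hippocampus (adjusted p = 4.32e-09) and 1.61 ± 0.15 in striatum (adjusted p = 6.76e-08). The input values rest on 9 to 24 fragments in hippocampus and 5 to 32 in striatum, so the size of the ratio is imprecise. With a pseudocount of 0.1 in place of 1 FPKM, the fold change was the largest of the alternatives, 3.54 in hippocampus and 2.99 in striatum.

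Erbb3, the neuregulin receptor with little kinase activity, was low throughout. In hippocampal input the 4 animals gave 0.66, 0.64, 0.71 and 0.93 scaled FPKM, and in hippocampal IP 0.02, 0.03, 0.31 and 0.25. The IP values came from 1, 2, 21 and 17 fragments. All 4 hippocampal IP libraries lay below all 4 inputs, and the fold change was -0.60 ± 0.20 (adjusted p = 0.0139), or -1.94 (adjusted p = 0.00362) with a pseudocount of 0.1 FPKM. Without animal 970 it was no longer called (adjusted p = 0.0738), nor without animal 971 (adjusted p = 0.0508). Without animal 974 the call held (adjusted p = 0.0124). Without animal 977, with the stricter filter, with carry-over subtracted or with only the hippocampal groups fitted, Erbb3 fell under the filter and was not tested. In striatum Erbb3 was 0.84, 0.68, 0.36 and 1.37 in input and 0.48, 0.30, 1.36 and 1.18 in IP, which overlap widely, with a fold change of 0.00 ± 0.20 (95% interval -0.42 to 0.42). The 12 oligodendrocyte markers, summed, stood at 216 to 249 scaled FPKM in input and 89.5 to 95.8 in IP of the hippocampus, and at 483 to 557 and 97.5 to 148 in the striatum, with none at 0 throughout a group. The median marker in IP held 6.40% to 19.1% of input in hippocampus and 8.28% to 33.2% in striatum. In hippocampal IP 11 of the 12 were called lower and 1 higher (35.5% and 30.1% of all genes tested), and in striatal IP 11 lower and none higher (31.4% and 33.5%). The part of these markers in the Erbb3 values was not tested.

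Erbb4, the neuregulin receptor with an active kinase, had the highest scaled FPKM of the 4 receptors in both inputs. That rank rests on the authors' gene lengths, put at 4239 bases for Erbb4 and 8618 for Egfr, against 12355 and 11326 annotated. In fragments, striatal input held more Egfr than Erbb4 in animals 971 (189 and 129) and 974 (265 and 157). It held less in 970 (189 and 230) and 977 (189 and 397), and hippocampal input held less Egfr (219 to 281) than Erbb4 (473 to 608). Its scaled FPKM was 10.2, 9.48, 10.2 and 9.75 in hippocampal input and 4.46, 5.86, 5.66 and 3.52 in hippocampal IP. The input values were close together, and every IP value was lower than every one of them. The fold change was -0.91 ± 0.21 (adjusted p = 0.00115), or -1.39 with no scaling. In striatum it was 6.51, 4.85, 8.94 and 8.01 in input and 7.55, 4.48, 4.16 and 8.83 in IP, with overlapping ranges and a fold change of -0.18 ± 0.21 (adjusted p = 0.464, 95% interval -0.63 to 0.26). The share of Erbb4 left in IP was 36.1% to 61.9% of input in hippocampus and 46.6% to 116% in striatum, in each animal above the share of the pan-neuronal markers. Summed markers of interneurons, the neurons Erbb4 is known from, were 727 to 874 in hippocampal input and 22.2 to 40.3 in hippocampal IP, and 610 to 860 and 24.4 to 57.5 in striatum. In IP those sums were 2.77% to 5.54% of input in hippocampus and 3.93% to 9.07% in striatum, below the share of Erbb4 in both regions.

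The make-up of the receptor RNA therefore differed between input and IP. The shares compare genes per kilobase, so their sizes rest on the authors' gene lengths. Egfr made up 17.2% of the summed scaled FPKM of the 4 receptors in hippocampal input and 80.6% in hippocampal IP, and 30.8% and 75.3% in striatum (means of 4 libraries). Erbb4 made up 75.2% of hippocampal input, 10.4% of hippocampal IP, 59.2% of striatal input and 15.1% of striatal IP. The share of Erbb2 was 2.01%, 8.65%, 2.63% and 7.41% in the same order, and that of Erbb3 was 5.59%, 0.34%, 7.32% and 2.19%. The receptor sum itself was 13.2 ± 0.75 scaled FPKM in hippocampal input against 46.9 ± 2.49 in IP, and 12.05 ± 3.44 against 41.1 ± 6.39 in striatum.

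**Figure D2:**
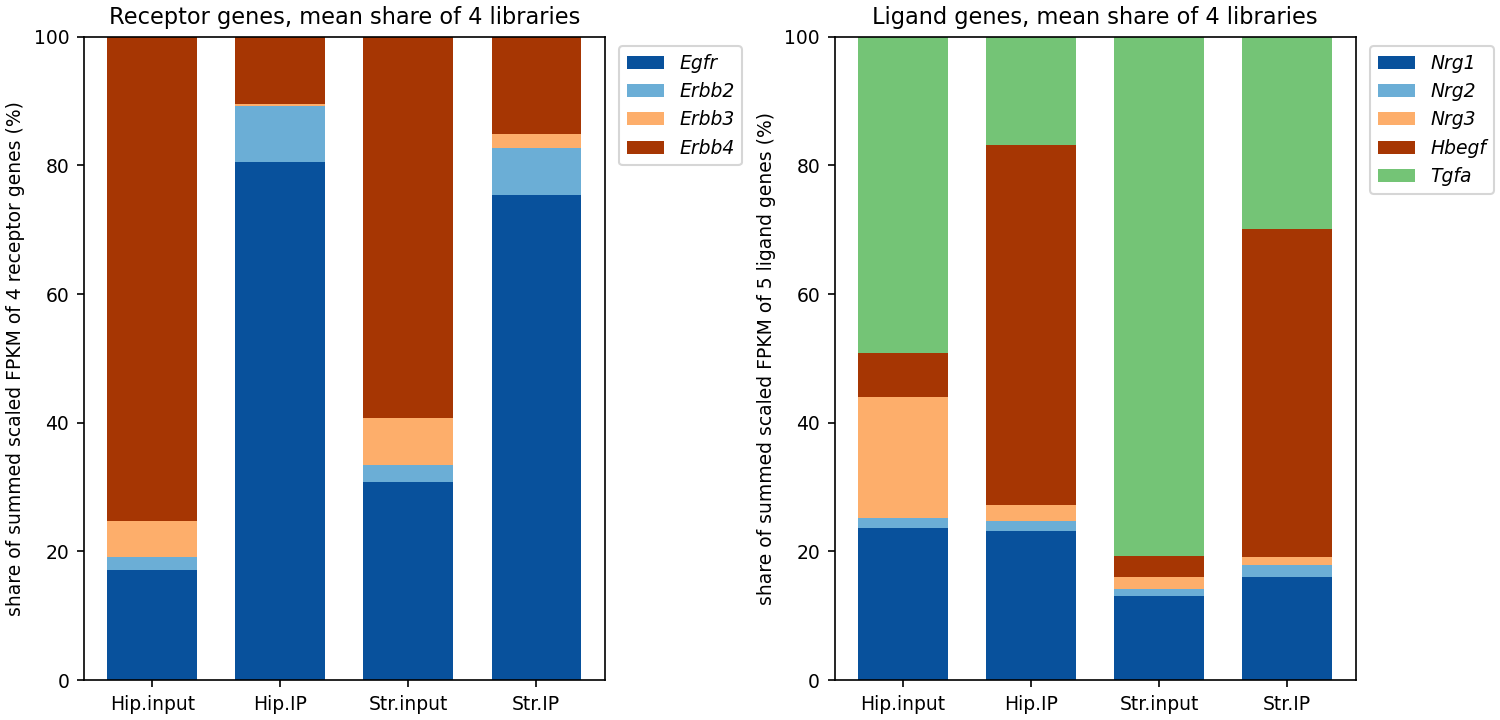
Mean share of each gene in the summed scaled FPKM of the 4 receptors (left) and of the 5 ligands (right), in percent (y axis), for the 4 groups (x axis). The sizes of the shares rest on the authors' gene lengths. Erbb4 fills most of both inputs (75.2% and 59.2%) and Egfr most of both IPs (80.6% and 75.3%), while Tgfa fills most of striatal input (80.8%) and Hbegf most of both IPs (56.0% and 51.0%).

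Of the ligands, Hbegf, a heparin-binding peptide that acts on Egfr and Erbb4, was the only one of the 5 enriched in IP. Its scaled FPKM in animals 970, 971, 974 and 977 was 2.21, 2.05, 2.01 and 2.52 in hippocampal input and 20.7, 22.1, 19.0 and 17.6 in hippocampal IP. In striatum it was 3.99, 4.10, 2.54 and 3.93 in input and 20.8, 24.4, 18.4 and 16 in IP. Input and IP were far apart in both regions, and the IP values of the regions lay side by side. The fold change was 2.70 ± 0.14 in hippocampus (adjusted p = 1.02e-10) and 2.17 ± 0.14 in striatum (adjusted p = 1.56e-09). Within animals, Hbegf in IP was 6.98- to 10.8-fold its input in hippocampus and 4.08- to 7.26-fold in striatum.

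Tgfa, a ligand of Egfr, had the highest scaled FPKM of the members in both inputs, by the authors' gene lengths, and fell in IP. In hippocampus it was 16.6, 14, 17.8 and 14.6 scaled FPKM in input and 4.91, 6.32, 5.46 and 7.03 in IP. In striatum it was 87.9, 105, 124 and 65.8 in input and 6.82, 10.9, 14.1 and 15.8 in IP. Within each region no input library overlapped with an IP library, and the striatal inputs stood above all other libraries. The fold change was -1.28 ± 0.22 in hippocampus (adjusted p = 7.54e-05) and -2.92 ± 0.22 in striatum (adjusted p = 6.99e-09). With carry-over subtracted from the IPs, the striatal value was -5.75 (adjusted p = 4.93e-08). That subtraction used the median pan-neuronal share. It left no Tgfa in the striatal IP of animals 970, 971 and 974, so this size rests on floor values. In striatum the IP held 7.77% to 24.0% of the input level of Tgfa, which was above the median share of the pan-neuronal markers in 1 of 4 animals. In hippocampus it held 29.6% to 48.3%, above that share in 4 of 4. In the other striatal IPs, Tgfa did not exceed the level that this median share of its input would give. By summed level the same markers kept less: 8.64%, 8.39%, 9.90% and 12.3% of input in animals 970, 971, 974 and 977. Tgfa kept 7.77%, 10.4%, 11.4% and 24.0% there, so the number of animals above the share depends on the measure.

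Nrg1, the best known ligand of Erbb3 and Erbb4, was present at similar levels in all groups but striatal input. In hippocampus it was 9.36, 5.94, 7.86 and 7.36 scaled FPKM in input and 9.06, 8.42, 7.33 and 7.91 in IP, with overlapping ranges. Its fold change was 0.10 ± 0.14 (adjusted p = 0.554, 95% interval -0.20 to 0.41), and the sign turned with no scaling (-0.39) and without animal 971 (-0.01). In striatum it was 14.4, 13.7, 15.1 and 15.97 in input and 4.78, 6.06, 8.28 and 6.42 in IP. There the groups were clearly apart, with a fold change of -1.11 ± 0.14 (adjusted p = 4.06e-06). The IP share of input was 93.2% to 142% in hippocampus and 33.2% to 54.9% in striatum, above the pan-neuronal share in every animal. The tables give 1 value per gene, so the isoforms of Nrg1 cannot be told apart.

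Nrg2 was the lowest of the 3 neuregulins in both inputs. It ranged from 0.36 to 0.60 scaled FPKM in input and 0.29 to 0.89 in IP of the hippocampus, and from 1.02 to 1.45 and 0.25 to 1.57 in the striatum. The IP ranges covered the input ranges in both regions. Its fold change was 0.06 ± 0.18 in hippocampus (95% interval -0.33 to 0.45) and -0.35 ± 0.18 in striatum (adjusted p = 0.102, 95% interval -0.74 to 0.04). With no scaling, Nrg2 was called lower in striatal IP, at -0.51 (adjusted p = 0.0398). Each library held 11 to 65 fragments of it.

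Nrg3, a ligand of Erbb4 known mainly from neurons, fell in IP in both regions. In hippocampus it was 5.83, 5.89, 5.41 and 6.66 scaled FPKM in input and 0.53, 0.70, 1.22 and 0.90 in IP. In striatum it was 1.82, 1.84, 2.96 and 1.97 in input and 0.21, 0.21, 0.69 and 0.77 in IP. All IP libraries were lower than all inputs, and hippocampal input was the highest group. The fold change was -1.93 ± 0.16 in hippocampus (adjusted p = 2.24e-08) and -1.11 ± 0.16 in striatum (adjusted p = 1.68e-05), the latter -2.12 with a pseudocount of 0.1 FPKM. The share left in IP was 9.15% to 22.5% in hippocampus and 11.3% to 39.0% in striatum. It was above the median pan-neuronal share in 4 of 4 and 2 of 4 animals. By summed level the pan-neuronal share in striatum was 8.39% to 12.3%, below that of Nrg3 in every animal.

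**Figure D3:**
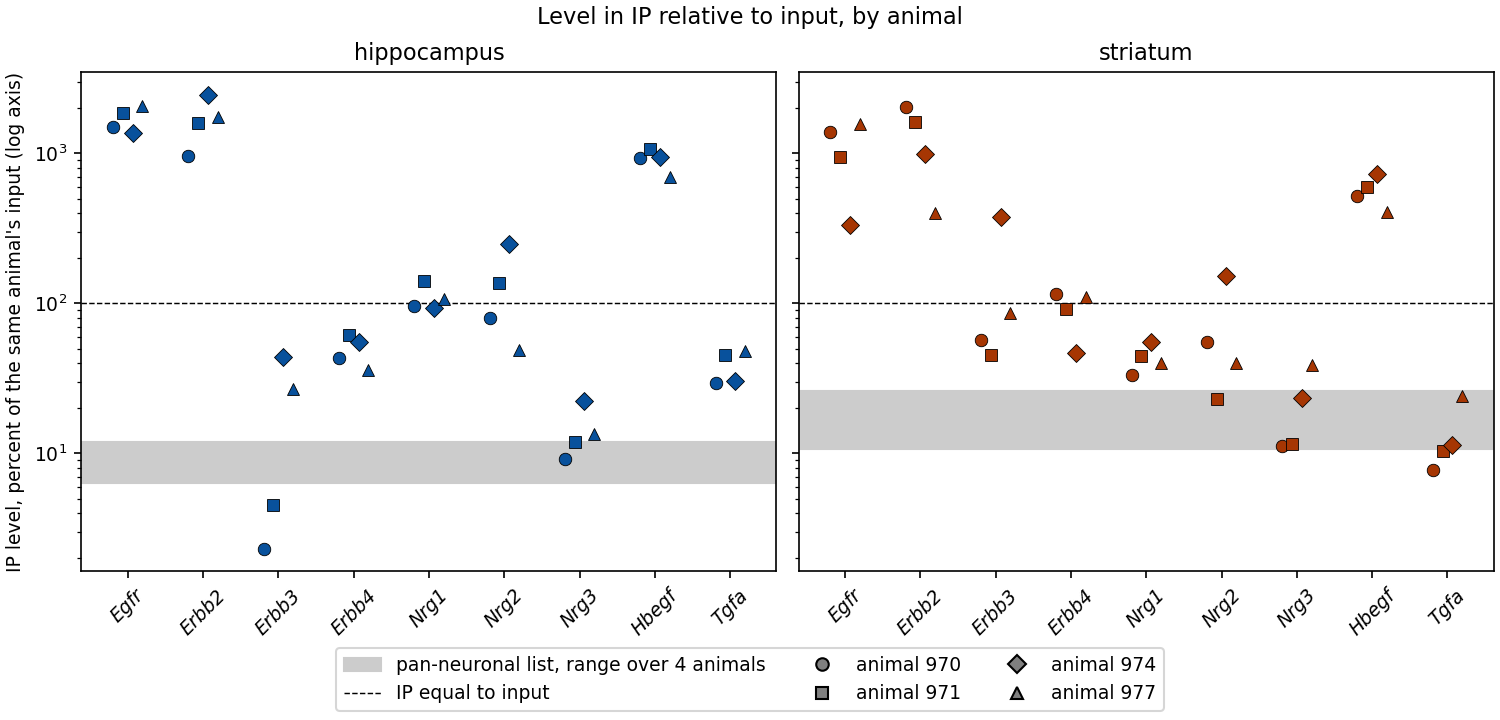
Level in IP as a percentage of the same animal's input (y axis, log scale) for each of the 9 genes (x axis) in hippocampus (left) and striatum (right), 1 symbol per animal, with the range of the pan-neuronal median as a grey band (6.35% to 11.97% and 10.7% to 25.9%) and a dashed line where IP equals input. Egfr, Erbb2 and Hbegf lie above the line in every animal, and Tgfa lies above the band in hippocampus and within or under it in striatum.

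The ligand RNA was rearranged as well, by shares whose sizes rest on the authors' gene lengths. Tgfa made up 49.1% of the summed scaled FPKM of the 5 ligands in hippocampal input, 16.8% in hippocampal IP, 80.8% in striatal input and 29.9% in striatal IP. Hbegf made up 6.89%, 56.0%, 3.27% and 51.0% in the same order, and Nrg1 23.7%, 23.1%, 13.1% and 16.1%. Nrg3 went from 18.7% of hippocampal input to 2.40% of hippocampal IP. The summed ligand level was 32.02 ± 2.67 scaled FPKM in hippocampal input and 35.4 ± 2.10 in hippocampal IP, but 117 ± 24.1 in striatal input and 39.4 ± 4.41 in striatal IP.

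**Figure D4:**
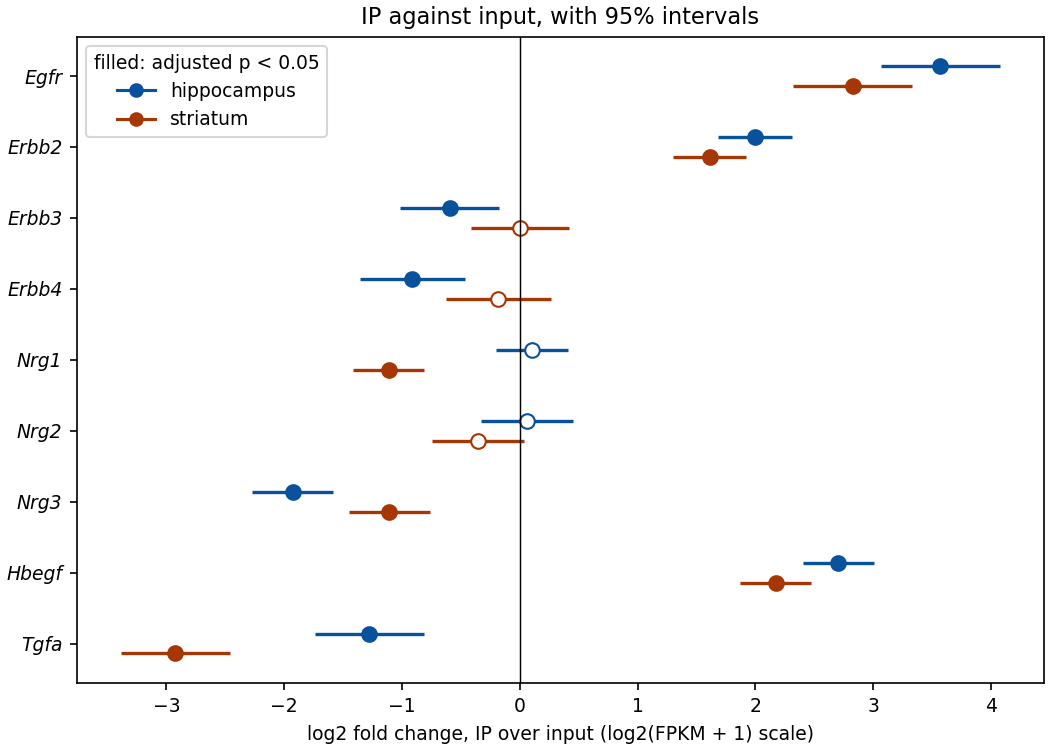
Log2 fold change of IP over input (x axis, log2(FPKM + 1) scale) for each of the 9 genes (y axis) in hippocampus and striatum. Lines are 95% intervals from the fit of all 16 libraries, and filled symbols mark an adjusted p under 0.05. Egfr has the highest value (3.57 and 2.83) and striatal Tgfa the lowest (-2.92).

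The order of the members by level, which compares genes per kilobase, differed between input and IP. It rests on the authors' gene lengths, which the whole-fragment steps put below the annotated exon length for 8 members (2098 against 10351 bases for Nrg1) and above it for Nrg3 (11983 against 6817). In hippocampal input it ran Tgfa, Erbb4, Nrg1, Nrg3, Egfr, Hbegf, Erbb3, Nrg2 and Erbb2, and the ranges of neighbours overlapped for Nrg1 with Nrg3, Egfr with Hbegf, and Nrg2 with Erbb2. In hippocampal IP it ran Egfr, Hbegf, Nrg1, Tgfa, Erbb4, Erbb2, Nrg3, Nrg2 and Erbb3. There Tgfa, Erbb4 and Erbb2 overlapped as neighbours, as did Nrg3, Nrg2 and Erbb3. In striatal input Tgfa and Nrg1 led apart from the rest, and Erbb4, Egfr, Hbegf and Nrg3 followed with overlapping neighbours. In striatal IP Egfr and Hbegf led apart from each other and from the rest, followed by Tgfa, Nrg1 and Erbb4 with overlapping neighbours, and then Erbb2. Egfr and Hbegf thus held the first and second place in IP of both regions.

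The second comparison set striatal IP against hippocampal IP, which asks whether the members differ between the astrocyte ribosome RNA of the regions. Of the 9 members, 2 were called, both higher in striatum, against 12.6% of all genes tested in either direction, 7.18% higher and 5.38% lower. For 0 members did the 2 groups of IP libraries lie fully apart, against 19.6% of all genes tested. Egfr, Erbb2, Erbb4, Hbegf and the neuregulins were not called. Tgfa was higher in striatal IP by 0.85 ± 0.22 (adjusted p = 0.0155) and in 4 of 4 animals, by 1.39- to 2.59-fold. The ranges of Tgfa, 4.91 to 7.03 and 6.82 to 15.8, overlapped at animal 970. Tgfa was not called when animal 971 (adjusted p = 0.0889), 974 (adjusted p = 0.085) or 977 (adjusted p = 0.0569) was left out. When the carried-over share of input was subtracted from each IP library, the direction turned: Tgfa was then lower in striatal IP, by a log2 fold change of -1.86 (adjusted p = 0.0231). The subtraction left no Tgfa in the striatal IP of animals 970, 971 and 974, so this value rests on floor values and is not a measured size. The direction of the regional difference of Tgfa on astrocyte ribosomes therefore depends on how carry-over is treated.

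The other called member was Erbb3, at 0.63 ± 0.20 (adjusted p = 0.0446), or 1.92 with a pseudocount of 0.1 FPKM. Its striatal IP values of 0.30 to 1.36 overlapped with the hippocampal IP values of 0.02 to 0.31 scaled FPKM. The call did not hold with no filter on low values (adjusted p = 0.0594), with no scaling (adjusted p = 0.0955), or without animal 970 (adjusted p = 0.154), 971 (adjusted p = 0.0841) or 974 (adjusted p = 0.115). Without animal 977, with carry-over subtracted or with only the IP groups fitted, Erbb3 fell under the filter and was not tested. The call thus held in no run with 1 animal left out. Of the 12 oligodendrocyte markers, 7 were called higher in striatal IP and none lower, with a median log2 fold change of 0.85, against 7.18% higher and 5.38% lower over all genes tested. Of 7 markers of oligodendrocyte precursors, which also carry Erbb3, 1 was called higher, 3 lower and 3 not called (median -0.02). Their sum was 74.3 to 114 scaled FPKM in hippocampal IP and 32.7 to 67.3 in striatal IP, with none at 0 throughout a group. In hippocampus the sum exceeded its input (51.4 to 51.8), though 4 of the 7 were called lower in IP and 2 higher (35.5% and 30.1% of all genes tested). The median marker there held 9.28% to 37.1% of input, so the sum does not stand for the list as a whole. The part of either list in the Erbb3 difference was not tested.

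Among the members that were not called, Egfr was lower in striatal IP in 4 of 4 animals, at 0.731 to 0.889 of the hippocampal level, with a fold change of -0.29 ± 0.24 (adjusted p = 0.508, 95% interval -0.80 to 0.21). Erbb2 was also lower in 4 of 4 animals, at 0.57 to 0.949 of the hippocampal level (-0.35 ± 0.15, adjusted p = 0.15). The 12 astrocyte markers lay lower too: 6 were called lower in striatal IP and none higher (median -0.49), where 5.38% of all genes tested were called lower. Their sum was 10931 to 14892 scaled FPKM in hippocampal IP and 6866 to 12497 in striatal IP, with none at 0 throughout a group, and their part in the Egfr and Erbb2 values was not tested. Hbegf was nearly equal, with a fold change of -0.01 ± 0.14 and a 95% interval of -0.31 to 0.30. For Erbb4 the fold change was 0.27 ± 0.21, and the animals were split, with 2 of 4 higher in striatum. Nrg1 and Nrg3 each gave -0.33, with SE 0.14 and 0.16 and adjusted p of 0.162 and 0.223. With carry-over subtracted, Nrg1 was called lower in striatal IP (-0.82, adjusted p = 0.00074). Nrg2 gave 0.12 ± 0.18.

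The third comparison set striatal input against hippocampal input. Of the members, 4 were called higher and 1 lower in striatum, against 14.5% and 21.8% of all genes tested (36.3% in either direction). Every ligand was called and no receptor was, with Nrg2 tested only because striatal libraries reached 1 FPKM. Tgfa was 4.52- to 7.51-fold higher in striatum within animals, with a fold change of 2.50 ± 0.22 (adjusted p = 1.73e-07). Nrg1 was 1.54- to 2.30-fold higher (0.88 ± 0.14, adjusted p = 0.000158), and Nrg3 was lower at 0.296 to 0.547 of the hippocampal level (-1.15 ± 0.16, adjusted p = 3.67e-05). The 2 groups of inputs did not overlap for 6 members, the 5 ligands and Erbb4, against 33.4% of all genes tested. For Tgfa, Nrg1 and Nrg3 every striatal input lay on the same side of every hippocampal input.

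Hbegf and Nrg2 were higher in striatal input by less. Hbegf differed by 0.52 ± 0.14 (adjusted p = 0.00925), and it was not called without animal 970 (adjusted p = 0.0727), nor without 971 (adjusted p = 0.0724). Nrg2, which passed the filter through striatal libraries alone, differed by 0.53 ± 0.18 (adjusted p = 0.0324, and 1.09 with a pseudocount of 0.1 FPKM). It was not called when animal 970 (adjusted p = 0.115), 971 (adjusted p = 0.0812) or 977 (adjusted p = 0.111) was left out. Without animal 974 Nrg2 fell under the filter and was not tested, so its call held in no run with 1 animal left out. The call was also lost without the striatal input of animal 971 (adjusted p = 0.0534), and in the fit with carry-over subtracted from the IPs (adjusted p = 0.0574). Both were higher in 4 of 4 animals. Among the receptors, Erbb4 had a lower level in striatal input in 4 of 4 animals, at 0.512 to 0.874 of hippocampus, and did not pass the test (-0.46 ± 0.21, adjusted p = 0.0958). Egfr gave 0.45 ± 0.24 (adjusted p = 0.147) and -0.01 without the striatal inputs of animals 971 and 974, while Erbb2 and Erbb3 each gave 0.04.

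**Figure D5:**
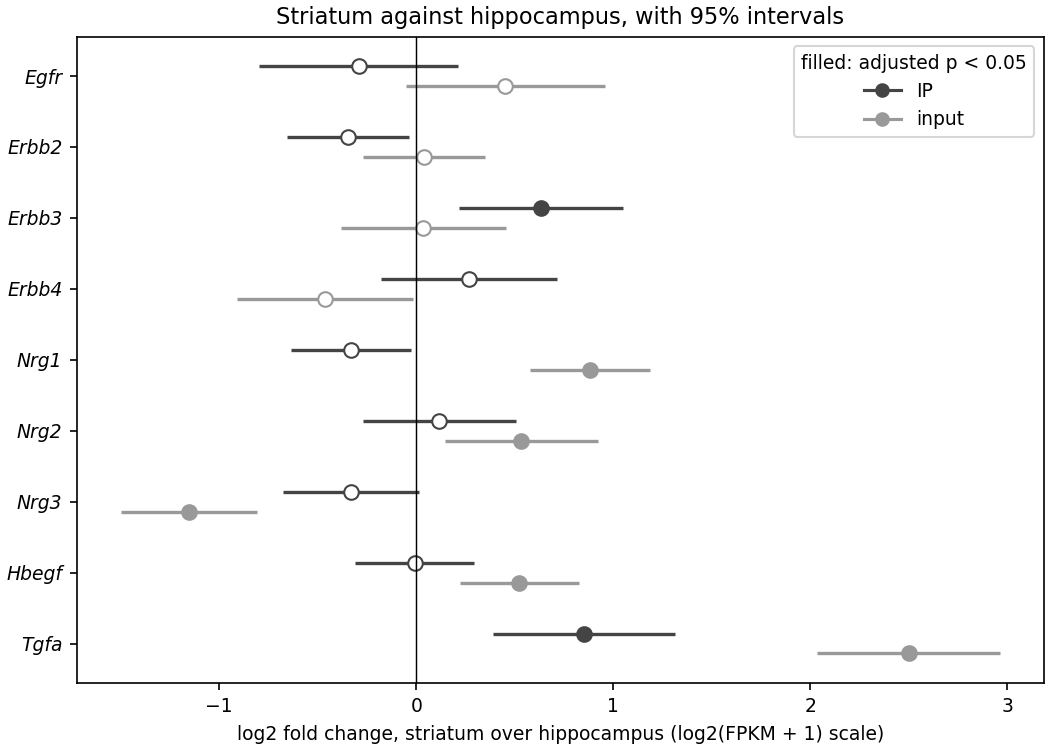
Log2 fold change of striatum over hippocampus (x axis, log2(FPKM + 1) scale) for each of the 9 genes (y axis), in IP and in input. Lines are 95% intervals from the fit of all 16 libraries, and filled symbols mark an adjusted p under 0.05. Input differs for the 5 ligands, most for Tgfa (2.50), and in IP Erbb3 (0.63) and Tgfa (0.85) are filled.

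The last comparison tested whether the IP enrichment itself, the log2 fold change of IP over input, differed between the regions. It was called for 3 members, 1 higher and 2 lower in striatum, against 13.8% of all genes tested in either direction, 8.47% higher and 5.33% lower. Tgfa was depleted more strongly in striatum, by -1.65 ± 0.31 (adjusted p = 0.00174), a call that was lost without animal 971 (adjusted p = 0.0645). With carry-over subtracted it was -4.41 (adjusted p = 0.000335), again with no Tgfa left in the striatal IP of animals 970, 971 and 974. Nrg1 was depleted in striatum relative to hippocampus by -1.22 ± 0.20 (adjusted p = 0.000671). Nrg3 was depleted less in striatum, by 0.82 ± 0.23 (adjusted p = 0.025). That call for Nrg3 was lost with a pseudocount of 0.1 FPKM (adjusted p = 0.424) or 0.5 FPKM (adjusted p = 0.102), without animal 970 (adjusted p = 0.119), 971 (adjusted p = 0.144) or 977 (adjusted p = 0.153), and without the striatal input of animal 971 (adjusted p = 0.0512). Its input was higher in hippocampus, and both its IPs were low.

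For the other members the difference in enrichment was not called. Egfr gave -0.74 ± 0.34 (adjusted p = 0.156), and Erbb4 gave 0.73 ± 0.30 (adjusted p = 0.116). Erbb4 was called lower in IP in hippocampus and not in striatum, and this test does not show that its depletion differs between them. Hbegf gave -0.53 ± 0.20 (adjusted p = 0.0917) and was called without the striatal input of animal 974 (-0.66, adjusted p = 0.0188), without those of animals 971 and 974 (-0.64, adjusted p = 0.0334), and with carry-over subtracted (-0.63, adjusted p = 0.0397). Erbb3 gave 0.60 ± 0.28 (adjusted p = 0.169), Nrg2 -0.42 ± 0.26 (adjusted p = 0.304) and Erbb2 -0.38 ± 0.21 (adjusted p = 0.235).

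The remaining ligands of the family were low. Egf, the founding ligand, had a mean of 0.423 scaled FPKM in hippocampal input, 0.169 in hippocampal IP, 0.492 in striatal input and 0.346 in striatal IP. Areg, Btc and Epgn had means of at most 0.504 scaled FPKM in any group, and Ereg was listed at 0 in all hippocampal libraries. Nrg4 alone of these 6 passed the filter, with means of 0.882, 0.415, 0.735 and 0.919 in the 4 groups in that order. It was called in none of the 5 comparisons, with an adjusted p of 0.125 in hippocampus and 0.704 in striatum for IP against input.

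Of the 10 tested genes for shedding of the ligands, 5 were called higher and 2 lower in hippocampal IP, and 4 higher and 2 lower in striatal IP. The median log2 fold change was 0.32 and 0.20, beside -0.10 and 0.01 over all genes tested, of which 30.1% were called higher and 35.5% lower in hippocampal IP, and 33.5% and 31.4% in striatal IP. Adam17, the main protease that releases Tgfa and Hbegf, was higher by 0.995 ± 0.11 in hippocampus (adjusted p = 4.34e-07) and 0.48 ± 0.11 in striatum (adjusted p = 0.000866). Rhbdf1, an iRhom that carries Adam17 to the cell surface, was higher by 1.46 ± 0.14 and 1.24 ± 0.14. Timp3, a secreted inhibitor of Adam17 and other metalloproteinases, was higher by 3.25 ± 0.14 and 3.36 ± 0.14, at 232 ± 27.1 scaled FPKM in hippocampal IP and 345 ± 70.7 in striatal IP. Adam19, a protease that can cut neuregulins, was lower by -1.12 ± 0.14 and -0.76 ± 0.14.

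Of the 17 tested adaptors and scaffolds, 9 were called higher and 3 lower in IP in each region, with medians of 0.66 and 0.35 (all genes tested: 30.1% up and 35.5% down for hippocampal IP, 33.5% and 31.4% for striatal IP, medians -0.10 and 0.01). Erbb2ip, which encodes the Erbb2-binding scaffold erbin, was higher by 2.04 ± 0.15 in hippocampus and 0.89 ± 0.15 in striatum. Gab1, a docking adaptor downstream of Egfr, was higher by 1.93 ± 0.13 and 0.87 ± 0.13, and Stat3, a transcription factor that Egfr can activate, by 2.09 ± 0.15 and 1.61 ± 0.15. Yap1, a transcriptional co-activator that can bind a cleaved fragment of Erbb4, was higher by 2.62 ± 0.14 and 1.94 ± 0.14. Dlg4, the postsynaptic scaffold that binds Erbb4, was lower by -2.64 ± 0.20 and -1.72 ± 0.20.

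The kinases below the receptors were mixed. Of the 13 genes of the RAS to MAPK list, 3 were called higher and 7 lower in hippocampal IP, and 4 and 5 in striatal IP, with medians of -0.39 and -0.08. Map2k1 and Braf were lower by -1.30 ± 0.11 and -1.57 ± 0.14 in hippocampus and by -0.95 ± 0.11 and -1.59 ± 0.14 in striatum. Nf1, whose product neurofibromin switches RAS off, was higher by 1.10 ± 0.15 in hippocampus (adjusted p = 5.06e-06) and 0.78 ± 0.15 in striatum (adjusted p = 0.000188). Of the 11 PI3K and AKT genes, 4 were called higher and 4 lower in hippocampal IP, and 3 and 4 in striatal IP. Akt2, a kinase of this list, was higher by 2.61 ± 0.19 in hippocampus and 1.72 ± 0.19 in striatum. Both counts stand beside 30.1% up and 35.5% down over all genes tested for hippocampal IP, and 33.5% and 31.4% for striatal IP.

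Of the 18 feedback and negative regulators, 7 were called higher and 8 lower in hippocampal IP, and 5 and 6 in striatal IP, with medians of 0.08 and 0.11. These counts are near the shares of all genes tested, 30.1% up and 35.5% down for hippocampal IP and 33.5% and 31.4% for striatal IP. Lrig1, a membrane protein that promotes degradation of ErbB receptors, had the largest change of those named, 3.79 ± 0.23 in hippocampus (adjusted p = 4.39e-10) and 2.98 ± 0.23 in striatum (adjusted p = 9.41e-09). Its level in IP was 56.2 ± 8.38 scaled FPKM in hippocampus and 29.5 ± 9.44 in striatum, a called difference of -0.95 ± 0.23 (adjusted p = 0.0105). Errfi1, a direct inhibitor of Egfr that is induced by its signalling, was lower in IP by -1.05 ± 0.14 and -0.998 ± 0.14.

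Among 9 tested ETS and early response genes, 2 were called higher and 4 lower in hippocampal IP, and 4 and 3 in striatal IP, where all genes tested gave 30.1% and 35.5%, and 33.5% and 31.4%. The ETS factors Etv5 and Etv4, which respond to MAPK signalling, were higher by 2.24 ± 0.19 and 1.81 ± 0.16 in hippocampus and by 1.58 ± 0.19 and 1.26 ± 0.16 in striatum. Both were lower in striatal than in hippocampal IP, by -0.78 ± 0.19 for Etv5 (adjusted p = 0.0103) and -0.75 ± 0.16 for Etv4 (adjusted p = 0.00512). Egr1, an early response gene, was lower in IP by -3.50 ± 0.28 and -3.44 ± 0.28. Between the IPs, Lrig1 was the only gene of its list called. Also called between the IPs were Egr1 (1.09 ± 0.28), Timp3 (0.56 ± 0.14) and Dlg4 (0.66 ± 0.20), all higher in striatal IP, and Stat3 (-0.64 ± 0.15), lower there. Of all genes tested, 7.18% were called higher in striatal IP and 5.38% lower. Lrig1, Etv5 and Etv4 were lower in striatal IP, and so were 6 of 12 astrocyte markers (median -0.49, sums as given for Egfr). The part of those markers in these differences was not tested.

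Across the 16 libraries the members fell into patterns set largely by input against IP. Egfr, Erbb2 and Hbegf had Pearson r of 0.957 to 0.972 with each other on log2 levels, and Nrg3 ran against Hbegf (r = -0.92). Nrg1 was nearest to Tgfa (r = 0.81). Among 7336 genes with a mean of at least 5 FPKM, the most like Egfr were Tjp1 (r = 0.998), Prex2 (0.997) and Epas1 (0.996), and the most like Erbb2 were Hspa9, Rab31 and Lss (each 0.991). For Nrg3 they were Cpne4 (0.990), Tub (0.988) and Slitrk1 (0.988), and for Nrg1 Kctd1 (0.916), Cdk19 (0.895) and Litaf (0.869). Likeness was weaker for Erbb4, led by Zfp763 (0.870), and for Nrg2, led by Mir5120 (0.834), while Erbb3 was led by Mir1188 (0.909) and Shank3 (0.907). These values are a description over 16 libraries of 4 animals, which share their animals and the contrast of IP with input.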

How the data were processed

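RNA-seq libraries from input and HA IP of hippocampus and striatum of 4 mice were made with the Ovation RNA-Seq System V2 kit, per the labels' protocols. Base calls came from bcl2fastq 2.17, and STAR, HTSeq and the build mm10 are named in the submitters' processing notes. Their remaining versions and the gene annotation are not given in the sources used here. The values the authors deposited, 1 table of 24060 gene labels per library, were read as FPKM from the values themselves: they are not whole, they sum to 216820 to 246137 per library, and 1127 of 1133 low genes (99.5%) lay within 0.05 fragments of whole-fragment steps per GENCODE length. Those steps gave the estimated depths, which differed 5.46-fold, which rest on GENCODE lengths. Each member's fragments came from the steps of its own 16 values, within 0.1 of whole numbers, and not from its GENCODE length, which differed from the length these steps imply (4239 against 12355 bases for Erbb4). Fragment numbers cover counting error only.

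Genes were kept where 4 or more libraries reached 1 FPKM (13467). FPKM was divided by trimmed-mean factors (0.746 to 1.30; 30% of log ratios and 5% of levels trimmed), and limma 3.58.1 (R 4.3.3) was run on log2(value + 1), with trend and robust variance, 16 libraries and 4 group terms (12 residual degrees of freedom). Benjamini-Hochberg adjustment covered all genes tested in each of the 5 comparisons, which share libraries. The procedure was tested on simulated data. Carry-over was the median IP share of input over the pan-neuronal list, per animal. The 17 alternatives changed the pseudocount, the filter, the scaling, the libraries, the carry-over and the variance model. Members and lists were chosen with earlier results of these data known. All members are named; of each pathway list, up to 4 genes with the smallest p in hippocampal IP against input and up to 4 between the IPs could be named, and of the likeness search the 3 highest correlations. Some genes that met this rule are left out of the text. Promoter sequences are RefSeq's (GRCm38.p6), and 5 members were searched.

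The labels tie the 4 libraries of an animal together. After group means were removed, the same animal's libraries correlated across genes at 0.308 to 0.532 between the IPs, 0.0535 to 0.319 between the inputs, 0.085 to 0.172 between hippocampal input and IP, and -0.00813 to 0.0846 between striatal input and IP. The animal entered as a replicate block in an alternative. Python 3.11.15 with pandas 2.3.3 and matplotlib 3.10.9 drew the figures.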

Additional observations from a re-analysis of the deposited data

Results flagged for a closer look

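In 36 sets of 4 values (9 genes in 4 groups), 1 library stood apart from the other 3 by a gap that exceeds Dixon's limit in 2 cases, where chance gives about 1 in 20. Nrg3 in striatal input was highest in animal 974 at 2.96 scaled FPKM, against 1.82 to 1.97 in the others. Hbegf in striatal input was lowest in animal 974 at 2.54, against 3.93 to 4.10. Both come from the shallowest library, with an estimated depth of 4.15 M fragments, and that difference in depth was not tested as a source.

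The IP enrichment differed between the regions for 3 members by the interaction test. It was lower in striatum for Nrg1 (-1.22) and Tgfa (-1.65) and higher for Nrg3 (0.82).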

How the results depend on the processing

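Over 662 values of the members under the alternatives, 612 kept their direction and their side of the threshold, 24 lost the call, 5 gained it and 21 changed sign. Egfr, Erbb2 and Hbegf against input kept their calls under every alternative run, as did Nrg3 and Tgfa. With the replicate block, 7, 6, 2, 5 and 3 members were called in the 5 comparisons, as without it, and no call of a member changed. The number called between the IPs was 2, and 1 with no filter, with a filter of 5 FPKM, with no scaling or with only those groups fitted. Leaving out 1 animal gave 0 to 1 between the IPs (0 without 971, 974 or 977), 3 to 5 between the inputs (3 without 970 or 971), and 1 to 4 for the regional difference in enrichment (1 without 971). Members that fell under the filter in a run count as not called. These were Erbb3 without animal 977 and Nrg2 without animal 974. Erbb3 was also not tested with the filter of 5 FPKM or with carry-over subtracted. Nor was it tested with only the IP groups, only the input groups or only the hippocampal groups fitted. Over all genes the same step gave 830 to 1293 between the IPs (1692 with all animals), 2596 to 4178 between the inputs (4895) and 576 to 1836 for the regional difference (1858), with fewer libraries in each fit.

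The sign changed for Tgfa between the IPs with carry-over subtracted (-1.86), and otherwise in values that were not called. That Tgfa value rests on floor values in the striatal IP of animals 970, 971 and 974. Nrg1 in hippocampal IP gave -0.39 with no scaling and -0.013 to 0.19 with 1 animal left out, and Nrg2 there -0.12 with no scaling. Erbb3 in striatal IP against input gave -0.042 and -0.0094 with pseudocounts of 0.1 and 0.5 FPKM, -0.14 with no scaling, -0.019 with median-ratio scaling, -0.23 without the striatal inputs of 971 and 974, and -0.25 to 0.12 with 1 animal or 1 striatal input left out. By the same step Erbb4 gave -0.33 to 0.10 in striatal IP against input and -0.015 to 0.48 between the IPs, Hbegf -0.055 to 0.034 between the IPs, and Erbb2 -0.064 to 0.14 and Erbb3 -0.0013 to 0.16 between the inputs. Between the IPs, Nrg2 gave -0.017 with carry-over subtracted and Hbegf 0.15 with no scaling. Egfr between the inputs gave -0.012 without the striatal inputs of 971 and 974. The cause was not tested. No scaling moved the median of all genes from -0.10 to -0.51 in hippocampal IP over input and from 0.01 to -0.25 in striatal. Few fragments limit Erbb2 in the inputs, and Erbb3 and Nrg2 in all groups.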
